A study of Mus musculus with 12 samples.

Results

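Antibody transcripts were followed in the antral region of the stomach through the probes whose ID starts with IGH, IGK or IGL and so names a segment of an immunoglobulin heavy, kappa or lambda chain. Of the 46116 probes on the array, 300 had such an ID, and the 108 with a non-normalized signal above 150 on at least 3 of the 12 arrays are described here. They comprised 44 heavy variable, 57 kappa variable and 1 lambda variable segments (IGLV2) and the 6 constant segments IGHA, IGHG1, IGHG2C, IGKC, IGLC1 and IGLC2. The measured level itself chose these probes: 4 passed through day 90 arrays alone, 78 through day 90 arrays and control mouse 3 alone, and 26 on other arrays too. A higher level at day 90 was therefore largely built into the choice, and for most members the values below are a description with no test. Tests are given for the 18 members that met the same rule without any day 90 array, and for 6 of 7 further probes that the rule did not use, whose IDs hold the NCBI gene number of an immunoglobulin gene (the other was too dim). The filter for testing (normalized signal above 100 on at least 3 arrays) was passed by Ighg1 through day 90 arrays alone. Ighg3 and 1 probe of Iglv1 passed it through these and control mouse 3 alone. For those probes a rise at day 90 was thus partly built in too. At the limit of the rule, the array with the 3rd highest signal read 151 for IGHV5S1, 151.4 for IGHV8S5 and 152.4 for IGKV4-58, which were taken, and 149.1 for IGKV5-45, 148.6 for IGHV1S129 and 147.1 for IGKV19-93, which were not.

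Antra came from CEA424-SV40 TAg transgenic mice killed at 30, 60 or 90 days of age and from non-transgenic wild type controls. All were of C57Bl/6 background, with 3 mice and 1 array per mouse in each of the 4 groups. The transgene, which was kept hemizygous, has the SV40 T antigens driven by a minimal human CEA promoter, and antral tumours develop. Samples labelled day 30, day 60 and day 90 held tumour together with normal tissue, while controls gave normal antrum. The labels put the age of the controls at 2 to 6 months, whereas the study's text speaks of littermates and a legend of day 90 animals, so their age is uncertain.

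An antibody is assembled from heavy and light chains, and each chain joins a variable part, which binds the antigen, to a constant part. A developing B cell cuts and rejoins its DNA so that one of many variable (V) segments lies beside a joining segment and the constant segment, and the light chain is either kappa or lambda. The heavy chain constant segment sets the antibody class, with mu in IgM, gamma in IgG and alpha in IgA. Plasma cells, the end stage of B cells, secrete antibody and hold these transcripts at very high levels; in the gut lining they mostly make IgA, which epithelial cells carry into the lumen. V segments of a family, such as IGKV4, resemble each other in sequence, so their probes can bind the same transcripts and are not independent measurements.

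Non-normalized array medians lay between 92.1 and 127.1, and between 18.4% (day 30 mouse 3) and 32.3% (control mouse 3) of all probes read above 150. Signals given below are quantile normalized, and a group with no array above 100 is called not above background. Control mouse 3 stood apart from control mice 1 and 2 in the immunoglobulin probes, so results against control are given with and without it. It was left out because of the very values tested, which favours a rise of immunoglobulin probes over control. For these probes the results without it show only how far a comparison hung on that mouse, and their p-values are not evidence of a rise. Results without it for the other genes named further below serve the same purpose only. Among the controls it was the highest for Pigr and 1 probe of Tnfsf13b, and the lowest for the tested probe of Ero1b and 1 probe of Sdc1. Leaving it out therefore favoured the differences given for these genes, and those p-values are not evidence of a change. In RNA from whole tissue, fewer cells of a type and less RNA per cell cannot be told apart. None of the 7 antral epithelium genes listed for a check of the tissue (Gast, Muc5ac, Muc6, Tff1, Tff2, Gkn1 and Gkn2) had a probe that could be named, so the label was not checked with them. The 52 probes named for T cell receptor segments served for comparison, and 2 of them would have passed the same rule.

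Immunoglobulin signal was high on 4 arrays, those of the 3 day 90 mice and of control mouse 3, and near background on the other 8. Members above 150 in non-normalized signal numbered 9, 1 and 1 at day 30, 8, 8 and 8 at day 60, 106, 75 and 101 at day 90, and 11, 20 and 104 in the controls. The median member had a normalized signal of 90.4, 79.2 and 85.6 at day 30, 88.2, 88.0 and 89.4 at day 60, 302, 157 and 248 at day 90, and 89.1, 96.4 and 219 in the controls. Day 90 mouse 2 was thus the lowest of the 4 high arrays. In 85 members both control mouse 3 and all 3 day 90 arrays lay above each of the 8 remaining arrays, in 102 members control mouse 3 did so, and in 88 members the day 90 arrays did. This separation was largely built into the choice. The rule was passed by 4 members through day 90 arrays alone and by 78 through these and control mouse 3 alone. The share over all probes was not counted, and nothing is read from these counts. All 300 immunoglobulin IDs, which no level had chosen, showed the step too. The share above 150 was 44.3%, 26% and 36.7% at day 90, and 3.67%, 7.33% and 41.7% in the controls. It was 4.33%, 0.333% and 0.333% at day 30 and 2.67% on each day 60 array. The 52 T cell receptor probes, likewise not chosen by level, showed no such step. Of these 0, 1 and 0 were above 150 at day 90 and 1, 2 and 3 in the controls.

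**Figure D1:**
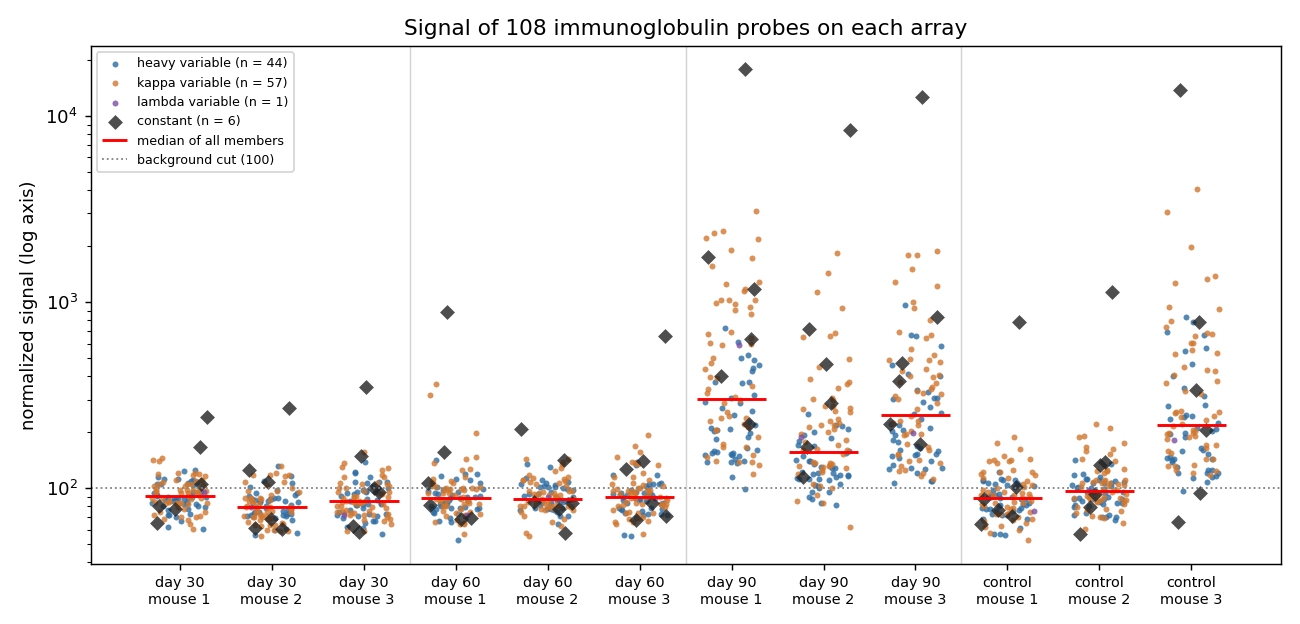
Normalized signal (log axis) of the 108 immunoglobulin probes on each of the 12 arrays, 1 point per probe, coloured by class, with the median of all members as a red line and the background cut of 100 dotted. The medians of 302, 157 and 248 at day 90 and 219 in control mouse 3 stand above the other 8, which lie between 79.2 and 96.4; levels of different probes are not comparable.

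The highest of the 12 arrays was day 90 mouse 1 for 54 members, control mouse 3 for 32, day 90 mouse 3 for 17, day 90 mouse 2 for 3, and day 60 mouse 1 and day 60 mouse 2 for 1 each. The classes were spread differently over these arrays. All 6 constant members were highest in day 90 mouse 1. The 57 kappa variable members were highest in day 90 mouse 1 for 34, in control mouse 3 for 16, in day 90 mouse 3 for 5 and in day 90 mouse 2 for 2. Heavy variable members were shared more evenly, with 13 highest in day 90 mouse 1, 12 in day 90 mouse 3, 1 in day 90 mouse 2 and 16 in control mouse 3. Whether the classes differ in this beyond chance was not tested, because probes of a class share transcripts.

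**Figure D2:**
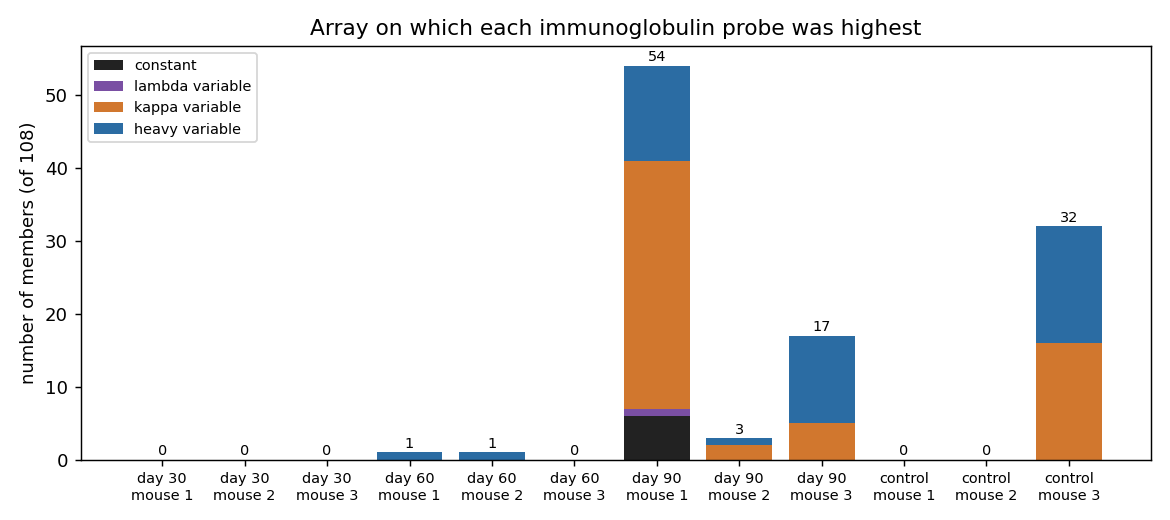
Number of the 108 members (vertical axis) for which each array held the highest normalized signal, stacked by class. Day 90 mouse 1 held 54, control mouse 3 held 32, and no member was highest at day 30, on day 60 mouse 3 or on control mouse 1 or 2.

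The kappa constant segment, the constant part of the most used mouse light chain, was high throughout the high arrays. IGKC had a signal of 241, 272 and 352 at day 30, 883, 208 and 656 at day 60, 17820, 8445 and 12680 at day 90, and 786, 1133 and 13850 in the controls. It was the 1 member above 150 in non-normalized signal on all 12 arrays, so the rule placed no condition on its differences. Its 3 day 90 arrays lay above all day 30 and day 60 arrays, and control mouse 3 lay between day 90 mice 3 and 1. The day 90 level exceeded day 60 by 4.65 ± 0.45 on the log2 scale (25.1-fold, limma adjusted p = 6.43e-05). Against control it did not pass (2.42 ± 0.90, adjusted p = 0.0965), whereas without control mouse 3 it did (3.72 ± 0.28, adjusted p = 3.22e-05). Day 60 and day 30 against control gave -2.23 ± 0.98 (adjusted p = 0.348) and -3.02 ± 0.89 (adjusted p = 0.859), with the control mean carried by control mouse 3.

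The same picture came from the Igkc probe named by gene number, which the rule did not use. It read 328, 401 and 459.5 at day 30, 1261, 275 and 1032 at day 60, 22520, 11110 and 17820 at day 90, and 1149, 1635 and 21940 in the controls. Here too the day 90 arrays and control mouse 3 were high and no other array came near them. Day 90 exceeded day 60 by 4.54 ± 0.47 (adjusted p = 0.000108) and control by 2.25 ± 0.93, which did not pass (adjusted p = 0.129; 3.59 and adjusted p = 3.37e-05 without control mouse 3).

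The gamma constant segments of IgG1 and IgG2c were high at day 90 but not in control mouse 3. IGHG2C, the IgG2c segment of C57Bl/6 mice, had a signal of 77.9, 60.2 and 101 at day 30, 69.2, 77.9 and 70.9 at day 60, 1184, 465 and 833 at day 90, and 64.6, 92.8 and 94.2 in the controls. Day 90 was at least 7.71-fold above control, whose 3 arrays were not above background. IGHG1 (IgG1) read 65.1, 68.4 and 62.5 at day 30, 68.8, 57.5 and 67.7 at day 60, 633, 287 and 375 at day 90, and 76.8, 56.7 and 66.2 in the controls, at least 4.09-fold higher at day 90. Both passed the rule through day 90 arrays alone, so these differences are given without a test. The rule did not use the Ighg1 probe named by gene number, but this probe was tested only because its day 90 arrays passed the filter. Its p-values are therefore not free of a choice by day 90 level. It read 63.8, 62.7 and 68.9 at day 30, 66.4, 60.6 and 58.4 at day 60, 952, 399 and 485 at day 90, and 61.4, 55.3 and 73.0 in the controls. All 3 day 90 arrays were well above the cut of 100 and none of the other 9 reached it. The day 90 level was at least 5.69-fold above control (limma adjusted p = 0.000142, and 0.000111 without control mouse 3) and at least 5.69-fold above day 60 (adjusted p = 2.33e-05). Control mouse 3 had 13850 for IGKC, inside the day 90 range, beside 94.2 for IGHG2C and 66.2 for IGHG1, at the level of the other controls.

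Probes for IgG3, IgA and IgM were raised in control mouse 3 over the other controls, whereas that for IgD was not. Ighg3 (IgG3), named by gene number, read 89.0, 68.3 and 60.8 at day 30, 68.7, 80.4 and 70.5 at day 60, 138, 81.1 and 122 at day 90, and 76.5, 91.0 and 264 in the controls. The highest array was control mouse 3, and day 90 exceeded day 60, which was not above background, at least 1.11-fold (adjusted p = 0.037), while against control the value was -0.14 ± 0.42 (adjusted p = 0.851, and 0.226 at 0.41 without control mouse 3). IGHA, the alpha segment of IgA, had 106, 126 and 149 at day 30, 156, 143 and 140.1 at day 60, 222, 168 and 221 at day 90, and 102, 133 and 206 in the controls. Its range was narrow, with control mouse 3 and day 90 mice 1 and 3 on top. IGHA at day 90 was 0.47 ± 0.13 above day 60 (adjusted p = 0.03) and 0.52 ± 0.24 above control (adjusted p = 0.178, and 0.0127 at 0.80 ± 0.18 without control mouse 3). The mu segment probe IGHM failed the rule, at 78.1, 121 and 75.9 at day 30, 61.8, 85.0 and 87.0 at day 60, 222, 66.2 and 78.1 at day 90, and 82.7, 71.9 and 234 in the controls. It was high in day 90 mouse 1 and control mouse 3 alone, as was the Ighm probe named by gene number, at 135, 202 and 152 at day 30, 136, 137 and 149 at day 60, 421, 117 and 137 at day 90, and 107, 98.6 and 398 in the controls. Neither Ighm comparison passed (day 90 against day 60 0.43 ± 0.37, adjusted p = 0.52; against control 0.23 ± 0.60, adjusted p = 0.833, and 0.204 at 0.88 without control mouse 3). The delta segment probe IGHD (IgD) stayed between 76.9 and 106 on all arrays.

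The lambda chain, the less used light chain of the mouse, was high in the same 4 mice with day 90 mouse 1 on top. IGLC1 had 166, 61.1 and 58.5 at day 30, 81.3, 84.7 and 127 at day 60, 1747, 719.5 and 471 at day 90, and 71.4, 138 and 783 in the controls. Day 90 lay 3.13 ± 0.38 above day 60 (adjusted p = 0.000258) and 2.09 ± 0.79 above control (adjusted p = 0.102, and 0.00175 at 3.08 ± 0.47 without control mouse 3). IGLC2 read 80.6, 108 and 95.3 at day 30, 106, 83.2 and 83.0 at day 60, 403, 116 and 174 at day 90, and 88.2, 79.4 and 336 in the controls, with day 90 mouse 1 and control mouse 3 well above the rest and day 90 mouse 2 close to them. The variable segment IGLV2 had 95.6, 79.8 and 71.9 at day 30, 72.2, 89.3 and 88.2 at day 60, 591, 188 and 198 at day 90, and 75.9, 97.4 and 183 in the controls, so that control mouse 3 fell just under the lowest day 90 array. The variable segment Iglv1, named by gene number, had 2 probes. One read 389, 102 and 111 at day 30, 138, 146 and 293 at day 60, 4619, 2496 and 1592 at day 90, and 119.7, 308 and 2318 in the controls. The other read 99.5, 74.8 and 61.2 at day 30, 75.6, 78.7 and 89.1 at day 60, 1122, 340.5 and 279 at day 90, and 54.9, 89.1 and 308 in the controls. Both were highest in day 90 mouse 1 and exceeded day 60, the first by 3.87 ± 0.36 (adjusted p = 5.58e-05) and the second, whose day 60 arrays were not above background, at least 4.74-fold (adjusted p = 0.00123). Against control they gave 2.58 ± 0.90 (adjusted p = 0.0791) and 2.05 ± 0.66 (adjusted p = 0.0606), and without control mouse 3 3.78 (adjusted p = 0.00045) and 2.76 (adjusted p = 0.00418). The probe whose ID carries the segment name IGLV1 failed the rule and stayed between 79.3 and 108, so the probes of this segment disagreed. The joining segment IGLJ4, the third lambda constant segment IGLC3 and the heavy diversity segment IGHD-3P failed too; IGLC3 was at 261 in day 90 mouse 1 and between 62.0 and 141 elsewhere.

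**Figure D3:**
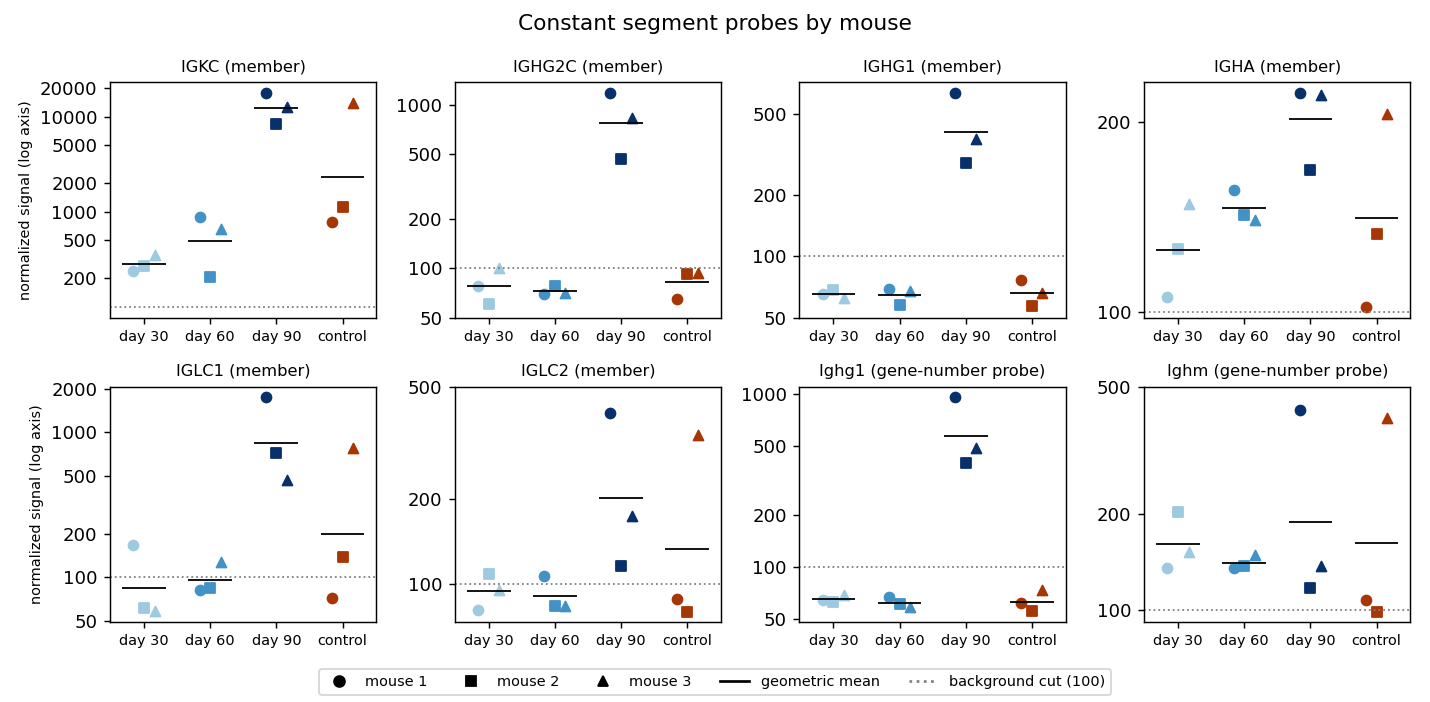
Normalized signal (log axis) by group for the 6 constant members and for the Ighg1 and Ighm probes named by gene number, 1 symbol per mouse, with the group's geometric mean as a line and the background cut of 100 dotted. IGKC, IGHA, IGLC1, IGLC2 and Ighm are high in control mouse 3 (triangle), whereas IGHG2C, IGHG1 and Ighg1 stay below 100 in all 3 controls.

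Among the kappa variable segments, the 4 with the highest mean signal were IGKV1-110, IGKV1-117, IGKV12-41 and IGKV4-61, and all 4 met the rule without the day 90 arrays. IGKV1-110 read 89.0, 76.4 and 88.3 at day 30, 365, 113 and 194 at day 60, 3088, 1828 and 1795 at day 90, and 101, 221 and 4043 in the controls. Control mouse 3 was above all day 90 mice, and day 60 mouse 1 stood out from the other day 60 mice. IGKV1-117 of the same family behaved alike, with 2216, 1442 and 1227 at day 90, 3042 in control mouse 3 and 319 in day 60 mouse 1. IGKV12-41 had 2185, 647 and 1889 at day 90 and 176, 212 and 1340 in the controls, and IGKV4-61 had 2365, 681 and 935 at day 90 and 139.6, 188 and 942 in the controls. In these, day 90 mouse 1 was the highest array. Above day 60 the 4 rose by 3.44 ± 0.35 (adjusted p = 0.000101), 3.15 ± 0.33 (adjusted p = 0.000113), 3.06 ± 0.37 (adjusted p = 0.00025) and 3.00 ± 0.35 (adjusted p = 0.000203). None passed against control (adjusted p between 0.0775 and 0.215), and all 4 did without control mouse 3 (adjusted p between 6.44e-05 and 0.00159). Probes of 1 segment can differ: the Igkv1-110 probe named by gene number stayed between 55.1 and 117 on the 12 arrays and was too dim to be tested.

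The largest rises over control among kappa variable members were those of IGKV1-110, IGKV6-15 and IGKV6-23. IGKV6-15 read 70.8, 64.1 and 85.8 at day 30, 94.4, 79.3 and 89.5 at day 60, 1906, 1136 and 1787 at day 90, and 140, 153 and 1979 in the controls. IGKV6-23 read 103, 74.95 and 89.3 at day 30, 98.2, 92.6 and 98.6 at day 60, 1563, 933 and 1514 at day 90, and 144, 163 and 1266 in the controls. Both stepped in all 3 day 90 mice and in control mouse 3, with day 90 mouse 2 lowest of the 4. They exceeded day 60, which was not above background, at least 15.7-fold (adjusted p = 8.43e-07) and at least 13-fold (adjusted p = 1.08e-06). Against control their log2 differences were 2.17 ± 0.86 (adjusted p = 0.117) and 2.07 ± 0.71 (adjusted p = 0.0737), and without control mouse 3 3.42 ± 0.22 (adjusted p = 1.19e-05) and 3.08 ± 0.22 (adjusted p = 2.14e-05). A few kappa variable members were carried by 1 mouse. IGKV14-100 reached 984 in day 90 mouse 1 beside 132 and 166 in day 90 mice 2 and 3 and 142, 125 and 143 in the controls, and against day 60 it did not pass (1.35 ± 0.57, adjusted p = 0.138). IGKV4-91 reached 559.9 in day 90 mouse 3 beside 139.5 and 92.3 in day 90 mice 1 and 2 and 79.6, 84.6 and 118 in the controls. These 2 members were chosen after their values were seen.

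Other kappa variable members with large differences between day 90 and day 60 were IGKV4-57, IGKV6-14, IGKV4-62 and IGKV12-44. IGKV4-57 read 122, 120.5 and 114 at day 30, 126, 109 and 105 at day 60, 2401, 660.4 and 1004 at day 90, and 137, 175 and 915 in the controls (3.37 ± 0.35 above day 60, adjusted p = 0.000113). IGKV12-44 had 1730, 495 and 1278 at day 90 against 144, 124 and 135 at day 60 (2.94 ± 0.35, adjusted p = 0.000242), with 794 in control mouse 3. Both met the rule without the day 90 arrays, and in both no day 60 array reached the lowest day 90 array. IGKV6-14 had 859, 362 and 665 at day 90 and 56.6, 55.2 and 64.5 at day 60, and IGKV4-62 had 1286, 451 and 498 at day 90 and 94.6, 76.4 and 81.6 at day 60. Their readings in control mouse 3 were 686 and 658.

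Of the 3 kappa variable members with the lowest differences from control, IGKV5-48 and IGKV17-127 were highest in control mouse 3. IGKV5-48 read 119, 131 and 126 at day 30, 137, 106 and 136 at day 60, 354, 138 and 374 at day 90, and 189.7, 140.2 and 1387 in the controls, with control mouse 3 far above every other array, and its log2 difference between day 90 and control was -0.34 ± 0.77 (adjusted p = 0.804) against 0.69 ± 0.38 without that mouse. IGKV17-127 read 206, 101 and 266 at day 90 and 101, 79.2 and 530.3 in the controls. IGKV4-51 was flat, at 143, 118 and 136 at day 30, 115, 143 and 134 at day 60, 134, 132 and 121 at day 90, and 114, 107 and 144 in the controls, and no group stood apart. Past the threshold against control were 9 kappa variable members (15.8% of the 57, beside 10.4% of all tested probes), each of which read lower in control mouse 3 than the day 90 mean. The rule used day 90 arrays for 8 of them, and nothing is read from the count. They were IGKV10-95, IGKV3-2, IGKV3-9, IGKV4-72, IGKV4-73, IGKV5-43, IGKV8-31, IGKV9-120 and IGKV9-124. Of these, IGKV8-31 alone met the rule without the day 90 arrays, at 325, 267 and 322 at day 90 and 122, 144 and 255 in the controls (0.88 ± 0.25, adjusted p = 0.0375).

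Heavy variable segments stepped on the same 4 arrays, with fitted log2 differences between day 90 and day 60, too small where day 60 was not above background, from -0.26 to 2.55 (median 1.04), where those of the kappa variable members ran from -0.01 to 4.17 (median 1.56). Those with the highest mean signal were IGHV1S63, IGHV1S119, IGHV5S17 and IGHV1S13. IGHV1S63 read 95.2, 94.4 and 108 at day 30, 98.9, 84.9 and 106 at day 60, 730.2, 252 and 972 at day 90, and 98.2, 115 and 691 in the controls. It was highest in day 90 mouse 3, while IGHV5S17, at 427, 220 and 402 at day 90 and 82.1, 99.8 and 829.7 in the controls, was highest in control mouse 3. IGHV1S119 read 524, 209 and 459 at day 90 and 106, 141 and 784 in the controls, and IGHV1S13 read 615, 200.2 and 669.7 at day 90 and 89.5, 107 and 670.3 in the controls. IGHV1S119 passed the rule on other arrays too, and the other 3 through the day 90 arrays and control mouse 3 alone. The largest rises over control were those of IGHV1S63, IGHV1S35 (501, 194 and 658 at day 90, 89.8, 80.1 and 545 in the controls) and IGHV1S120 (487, 170.3 and 579.5 at day 90, 81.4, 94.7 and 402 in the controls). In each the day 90 and control ranges overlapped through control mouse 3. In 2 heavy variable members, both of which passed the rule through day 90 arrays alone, control mouse 3 lay below all day 90 arrays: IGHV1S53 had 189, 217 and 193 at day 90 and 75.7, 110.1 and 108 in the controls, and IGHV5S2 had 164, 128 and 145 at day 90 and 56.2, 73.9 and 97.0 in the controls. Among members with large differences between day 90 and day 60, IGHV12S1 had 371, 169 and 274 at day 90 and 91.9, 77.3 and 86.7 at day 60, IGHV1S31 had 318, 188 and 339.6 at day 90 and 98.4, 87.2 and 104 at day 60, IGHV8S7 had 368, 104 and 303 at day 90 and 82.9, 84.1 and 73.6 at day 60, and IGHV1S36 had 272, 121 and 304 at day 90 and 72.7, 81.3 and 78.2 at day 60. At the other end, IGHV2S1, IGHV5S1 and IGHV7S3 did not step. IGHV2S1 read 124, 132 and 122 at day 30, 142, 107 and 138 at day 60, 114, 129 and 107 at day 90, and 110.5, 136 and 131 in the controls, IGHV5S1 had 99.3, 89.5 and 109.5 at day 90 and 111, 118 and 117 in the controls, and IGHV7S3 had 158, 95.9 and 120.3 at day 90 and 123, 103 and 138 in the controls. IGHV2S1 and IGHV5S1 met the rule without the day 90 arrays, and neither passed against control (adjusted p = 0.64 and 0.26).

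The mice with high signal were ranked differently by different variable segments, a description without a test. Day 90 mouse 1 also had the highest median member signal (302, beside 157 and 248 in day 90 mice 2 and 3). Its overall level was not separated from its leads in single segments. In 23 members day 90 mouse 1 exceeded the next day 90 mouse at least 2-fold, against 2 members led in this way by day 90 mouse 3 and 0 by day 90 mouse 2. Of these 23, IGKV14-100 had the largest ratio (5.93-fold over the next day 90 mouse), followed by IGKV12-89 (4.22), IGHV8S4 (3.54) and IGKV4-73 (3.03). The family IGKV4, the largest of the kappa families here with 18 members of 30 IDs, was highest among the day 90 mice in mouse 1 for 16 members, and IGHV8 in mouse 1 for all 4. Family IGHV1, with 20 members of 70 IDs, was highest in mouse 3 for 14 members, in mouse 1 for 5 and in mouse 2 for 1. Control mouse 3 lay above all 3 day 90 arrays in 34 members, within their range in 60 and below them in 14. Those above comprised 18 heavy and 16 kappa variable members, and those below comprised IGHG1, IGHG2C, 2 heavy variable and 9 kappa variable members and IGLV2. Control mouse 3 was at least 2-fold over the day 90 geometric mean in 10 members, led by IGKV5-48 (5.27-fold), IGKV5-39 (3.83), IGKV17-127 (3.00) and IGKV17-121 (2.79), and at least 2-fold under it in 4. Both IGKV2 members, both IGKV17 members and 7 of 11 IGHV5 members were above all day 90 mice in control mouse 3, against 4 of 18 IGKV4 members and 0 of 4 IGHV8 members. With 1 mouse of this kind, no test of these differences was possible.

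**Figure D4:**
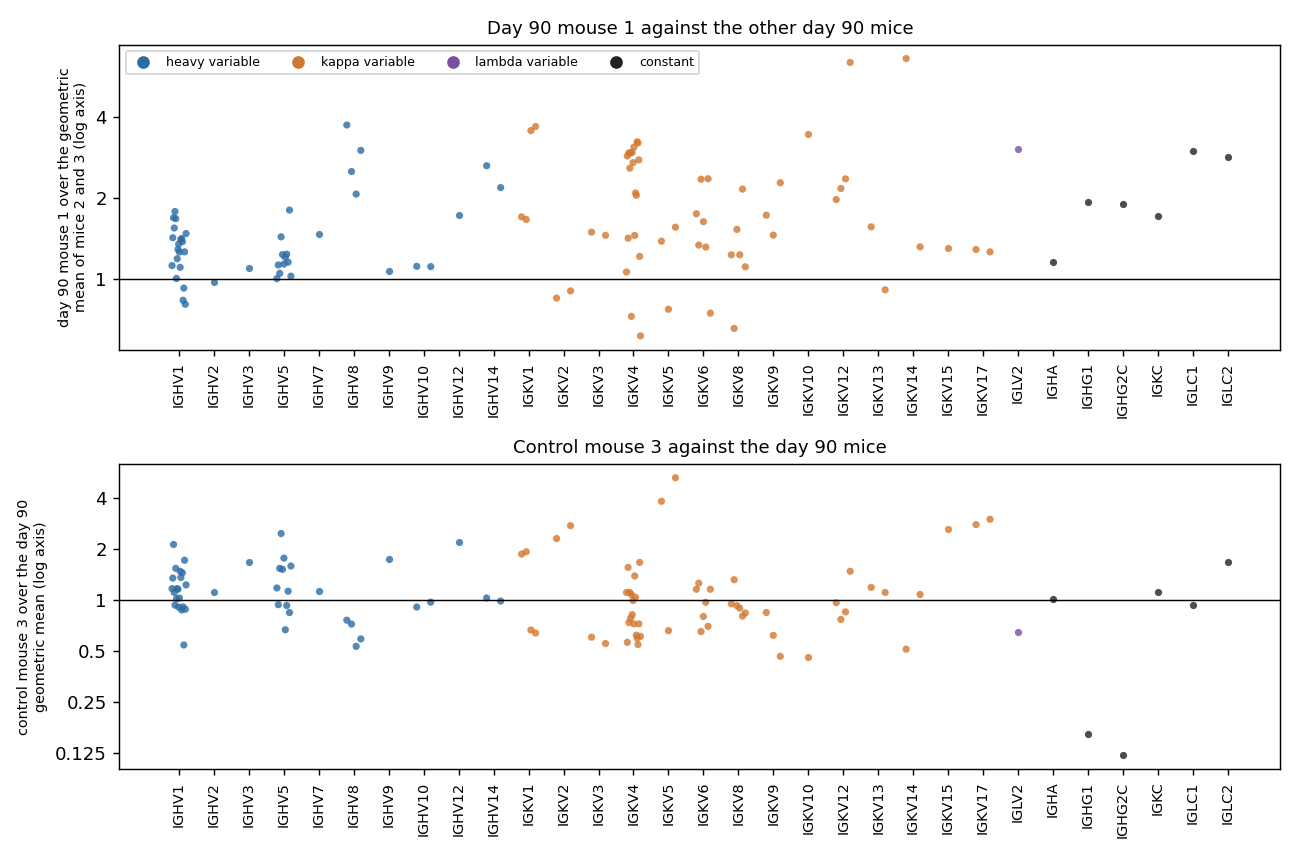
For each member, 1 point per probe grouped by variable family or constant segment: above, day 90 mouse 1 over the geometric mean of day 90 mice 2 and 3; below, control mouse 3 over the geometric mean of the 3 day 90 mice (both log axes, line at 1). Most IGKV4 and all IGHV8 points lie above 1 in the upper plot, and IGHG1 and IGHG2C are the lowest points of the lower plot.

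Names of kappa variable segments carry a second number, which counts positions along the kappa locus from the joining segments outwards. It was present in all but 24 of the 145 kappa variable IDs. Members came from the whole length: 15 of 31 IDs at positions 1 to 35, 17 of 33 at 36 to 70, 13 of 30 at 71 to 105 and 12 of 27 at 106 to 137, which is 48.4%, 51.5%, 43.3% and 44.4%. Control mouse 3 exceeded all day 90 mice in 2, 5, 3 and 6 members of these 4 stretches. The most distant stretch thus held the largest share of members led by control mouse 3, a description without a test.

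In the comparison of day 90 with day 60, 91 of the 108 members were called higher and 0 lower, beside 9.94% of all 22067 probes tested called higher and 9.83% called lower. Since the rule used this contrast, nothing is read from that count. Among the 18 members that met the rule without the day 90 arrays, 14 were called higher (median log2 difference 2.97, against -0.04 over all probes), and the 4 others were IGHV2S1, IGHV5S1, IGKV14-100 and IGKV4-51. With no level asked of a probe, that is with all 300 immunoglobulin IDs and without the filter on dim probes, 126 were called higher and 0 lower, beside 4.79% of all 46116 probes higher (median 0.225, against -0.01) and 4.47% lower. Probes that failed the rule were often too dim: 48 were tested and 11 called higher, among them IGKV5-45 (at least 1.52-fold, adjusted p = 0.00166) and IGKV12-98 (at least 1.96-fold, adjusted p = 0.0437), and 0 lower. The filter for testing counted day 90 arrays, so for dim probes a rise could be partly built in, and nothing is read from this count. Without the filter 27 of the 192 IDs that failed the rule were called higher (14.1%, beside 4.79% of all probes). Of the T cell receptor probes 7 were tested and 0 called by limma in either direction (0 at an unadjusted p under 0.05 for a rise). All 3 day 90 arrays lay above all 3 day 60 arrays in 94 members, where 16% of all tested probes did.

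In the comparison of day 90 with control, 13 members were called higher and 0 lower, beside 10.4% of all tested probes called higher and 9.17% called lower, and 45 members had an unadjusted p under 0.05 for a rise, beside 15.9% of all tested probes. The rule used this contrast too, and nothing is read from these counts. Of the 18 members that met the rule without the day 90 arrays 1 was called, IGKV8-31. With all 300 IDs and no filter 35 were called higher and 0 lower, beside 5.26% of all probes higher and 4.38% lower (median 0.18, against -0.02). Leaving out control mouse 3 gave 78 members called higher and 0 lower, beside 10.8% of all tested probes called higher and 10.6% called lower, and 13 of those 18. That mouse was left out for its level of these probes, so nothing is read from these counts either. With control mouse 3 kept, leaving out each other array in turn gave between 6 and 15 members. All 3 day 90 arrays lay above all 3 controls in 14 members, where 17.9% of all tested probes did, and below them in 1 (IGHV5S1), where 19.9% did. Without the filter 1 of the 52 T cell receptor probes was called higher, and 0 with it.

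No member was called by limma at day 60 against control, at day 30 against control or at day 60 against day 30. The background called higher in these comparisons was 0.847%, 0% and 0.353% of tested probes, and that called lower 0.00906%, 0% and 0.00453%. At an unadjusted p under 0.05, 10 members were lower at day 60 than in control (5.09% of all tested probes were), 13 were lower at day 30 than in control (2.06%), and 7 were higher at day 60 than at day 30 (8.32%). The median member differed from control by -0.44 at day 60 and by -0.51 at day 30 on the log2 scale (-0.01 and 0.02 over all probes), with control mouse 3 among the controls. Without that mouse 2 members were called lower at day 60 against control and 0 at day 30. The share of all tested probes called in those fits was not counted, so nothing is read from these calls. Day 60 differed from day 30 by a median of 0.07 (-0.03 over all probes). All 3 day 60 arrays lay below all 3 controls in 19 members (9.1% of all tested probes), all 3 day 30 arrays lay below them in 28 (4.15%), and all 3 day 60 arrays lay above all 3 day 30 arrays in 13 (10.2%). Since 78 members passed the rule through day 90 arrays and control mouse 3 alone, a higher level in control was partly built into the choice. Nothing is read from the counts and medians against control given here.

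Genes around the antibody itself were taken from 12 lists, and most of their genes had no probe that could be named. Of 8 plasma cell genes 3 had a probe, and none of the 3 probes tested was called in the 5 comparisons with all arrays. Jchain, the joining chain of IgA and IgM polymers, stayed between 51.6 and 67.2 and was not above background on any array, the high ones included. Xbp1, a transcription factor of secretory cells, had 5454, 4859 and 5765 at day 30, 5000, 5467 and 4886 at day 60, 6269, 6025 and 6025 at day 90, and 6688, 6591 and 5986 in the controls, and 1 of the 2 probes of Sdc1, the plasma cell surface protein CD138 that epithelia carry too, had 178, 136 and 174 at day 90 and 257, 236 and 194 in the controls (adjusted p = 0.0592, and 0.0234 at -0.61 without control mouse 3). Of 10 B cell genes 1, the IgE receptor Fcer2a, had probes, and neither of its 2 probes was above the cut on any array. The 3 T cell genes with a probe had 0 probes tested; Cd3e lay between 72.4 and 128, highest in control mouse 3, while both probes of Cd247 and that of Cd8b1 were below the cut on all arrays and highest elsewhere. The level of B cells and plasma cells in these mice could therefore not be followed by their own markers here.

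For antibody folding and secretion 8 probes of 7 genes were tested, and 2 were called higher and 0 lower at day 90 than in control, beside 10.4% and 9.17% of all tested probes, with a median log2 difference of -0.08. Ero1b, an oxidase of disulfide formation, did not pass (-0.40 ± 0.36, adjusted p = 0.489) but was called lower without control mouse 3 (-0.89, adjusted p = 0.00439). Hspa5, the chaperone BiP of the endoplasmic reticulum, had 350.5, 286 and 258 at day 30, 499.7, 762 and 709 at day 60, 851, 764 and 908 at day 90, and 334, 407 and 329 in the controls (1.24 ± 0.14, adjusted p = 0.000403), and Ssr4, a translocon subunit, had 5986, 6856 and 5572 at day 90 and 4374, 3951 and 3743 in the controls (0.61 ± 0.13, adjusted p = 0.0119). Hspa5 was not raised in control mouse 3, and it was already higher at day 60 than at day 30 (1.13 ± 0.18, adjusted p = 0.0401). Txndc5, a protein disulfide isomerase, was lower at day 90 than at day 60 (1231, 1144 and 1125 against 1448, 1572 and 1491, -0.37 ± 0.10, adjusted p = 0.0305). Of the B cell receptor signalling genes 3 were tested and 1, Prkcb (a protein kinase C), was higher, with 256, 382 and 198 at day 30, 297, 324 and 306 at day 60, 655, 832 and 764 at day 90, and 216, 194 and 194 in the controls (1.89 ± 0.13 against control, adjusted p = 3.14e-05; 0.62 ± 0.11 at day 60, adjusted p = 0.0448). Prkcb was not raised in control mouse 3, and day 90 exceeded day 60 by 1.27 ± 0.12 (adjusted p = 5.58e-05). The shares of all tested probes called higher were 10.4% at day 90 and 0.847% at day 60 against control, and 9.94% at day 90 against day 60. Cd72, a B cell surface protein of the same list, had 165, 118 and 113 at day 90 and 108, 139 and 119 in the controls (adjusted p = 0.742).

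In the list for antibody transport and Fc receptors, Pigr, the epithelial receptor that carries polymeric IgA into the lumen, had 415, 882 and 186 at day 30, 873, 868 and 768 at day 60, 2578, 1377 and 1716 at day 90, and 617, 314 and 4127 in the controls. Its highest arrays were control mouse 3 and then the 3 day 90 mice, the same 4 arrays that were high in immunoglobulin probes. Day 90 exceeded day 60 by 1.13 ± 0.19 (adjusted p = 0.00212) and control by 0.98 ± 0.77 (adjusted p = 0.432, and 0.00161 at 2.05 without control mouse 3). Fcgr2b, an inhibitory IgG receptor, had 229, 201 and 216 at day 90 and 162, 162 and 159 in the controls (0.42 ± 0.11, adjusted p = 0.0328, but 0.058 at 0.41 without control mouse 3), and Fcgr3, an activating one, had 245, 186 and 210.3 at day 90 and 131, 202 and 145 in the controls (adjusted p = 0.131). Of the 4 genes of this list tested, 1 was called higher and 0 lower in each of the comparisons of day 90. Of all tested probes 10.4% were called higher and 9.17% lower against control, and 9.94% and 9.83% against day 60.

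Among factors for homing and survival of B and plasma cells 7 probes of 6 genes were tested, with 0 called against control at day 90 and 1 called higher against day 60. Of all tested probes 10.4% were called higher and 9.17% lower against control, and 9.94% higher against day 60. Ccl25, a chemokine of the small intestine, was at 534 in control mouse 3, beside 118, 126 and 124 at day 90 and 100.2 and 104 in control mice 1 and 2. Tnfsf13 (APRIL), a plasma cell survival factor, had 409.9, 305 and 272 at day 90 and 407, 297 and 853 in the controls, again with control mouse 3 on top (adjusted p = 0.326). For Tnfsf13b (BAFF) 1 probe had 138, 116 and 138 at day 90 against 77.9, 87.1 and 71.8 at day 60 (at least 1.3-fold, adjusted p = 0.00185) and 153 in control mouse 3, and the other did not pass (adjusted p = 0.904). Outside day 90 the first probe was above 100 only on day 30 mouse 3 and control mouse 3. It was thus tested only because of its day 90 level, and a rise was partly built in. Against control without mouse 3, its highest control, the first probe passed (0.49, adjusted p = 0.0396), which is not evidence of a rise. Of the class switch and rearrangement genes 5 were tested and Bach2, a repressor of plasma cell differentiation, was higher at day 90 than at day 60 (120.5, 126 and 104 against 87.9, 90.3 and 88.5, at least 1.17-fold, adjusted p = 0.0306). This 1 call stands beside 9.94% of all tested probes called higher. Outside day 90 Bach2 was above 100 only on day 30 mouse 1 and control mouse 3, so a rise was partly built into its being tested. The surrogate light chain gene Vpreb1 did not pass (adjusted p = 0.32 against control).

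Macrophage genes (5 tested) and genes of class II antigen presentation (4 genes, 5 probes) had no call in any comparison. Cd74, the invariant chain of class II molecules, had 652, 461 and 578 at day 30, 838, 715 and 895 at day 60, 1198, 340.5 and 270.2 at day 90, and 552, 863 and 1152 in the controls, and H2-Ab1 had 562, 183 and 174 at day 90 and 336, 487 and 774 in the controls on 1 of its 2 probes. Day 90 mouse 1 and control mouse 3 were the 2 highest arrays for Cd74 and day 90 mice 2 and 3 the 2 lowest, while the immunoglobulin probes were high in all of these mice. Genes of the small intestinal epithelium formed a list added after the data were seen, and 4 of its 22 genes had a probe. Its summed signal ran from 492 to 1360 at day 30, from 874 to 1064 at day 60, from 462 to 1437 at day 90 and from 1138 to 3247 in the controls, where control mouse 3 was the highest. Slc5a1, the intestinal sodium and glucose cotransporter, was at 832 in control mouse 3, beside 121, 236 and 239 at day 90 and 191 and 129 in control mice 1 and 2, and day 90 exceeded day 60 by 0.80 ± 0.22 (adjusted p = 0.0282). This was the 1 of the list's 5 probes called, beside 9.94% of all tested probes called higher, and the list's median difference between day 90 and day 60 was -0.19. The other probes were also highest in control mouse 3, Apoa4 at 333 and 1499, Apoc3 at 334 and Cyp3a11 at 249.8. Other defining genes of that list, such as Fabp2, Vil1 and Sis, had no probe named. In control mouse 3 these genes and the immunoglobulin probes were both high. Day 90 mouse 1, which had the highest median member signal (302), had the lowest sum of this list on any array (462). Across the high arrays the list thus did not follow the immunoglobulin signal, and any part of these genes in it was not tested.

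**Figure D5:**
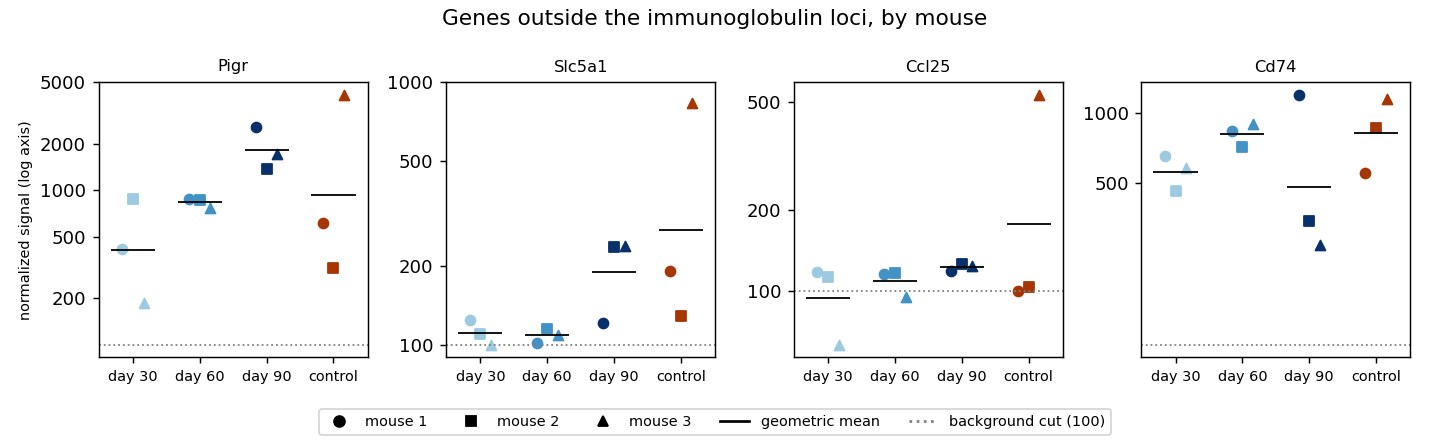
Normalized signal (log axis) by group of Pigr, Slc5a1, Ccl25 and Cd74, 1 symbol per mouse, with the geometric mean as a line and the background cut of 100 dotted. Control mouse 3 (triangle) is the highest array for Pigr, Slc5a1 and Ccl25, and day 90 mice 2 and 3 are the lowest for Cd74.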

How the data were processed

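Each of 12 mice gave 1 RNA sample and 1 Illumina Sentrix Mouse-6 array. The authors deposited non-normalized intensity values, which to judge by their array medians of 92.1 to 127.1 had no background subtracted, and normalized intensity values for the same 46116 probes; the normalized values ranked the probes of each array alike (Spearman correlation of 1). The study's methods name vsn in one place and quantile normalization in another, and detection p-values and slide positions were not given in the sources used here. The non-normalized intensities were corrected by normexp (offset 50), quantile normalized, floored at 32 and put on the log2 scale with limma 3.58.1 in R 4.3.3. The lowest normalized value was 50.8, so folds of dim probes are too small. Probes above 100 on at least 3 arrays were tested (22067). Each of 5 comparisons was fitted alone by lmFit and eBayes, 3 against 3 arrays, with Benjamini-Hochberg adjustment over all tested probes and a threshold of 0.05. Errors are limma's standard errors, and the 3 arrays per group limit the precision. Where no array of a group exceeded 100, its value in the fold was set to 100, giving a lower bound ("at least"). The fits were tested on simulated data.

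Segments were named from the probe IDs. A number inside 9832 other IDs was read as an NCBI gene number, an inference, and matched to RefSeq genes of GRCm38.p6, and a clone name in 991 IDs was matched to its symbols. Named in the text are all constant members, and per variable class the 4 highest means, the 3 largest rises and falls at day 90 against control and members past the threshold, up to 10 per class. From the lists come genes past the threshold, or the 2 with the smallest p. Other probes are marked or serve as the values of a result. The members, lists and rules were chosen with earlier results of these data known. Tried as alternatives were other background corrections and scalings, the authors' normalized values, other filters, a single fit over the 4 groups, eBayes with trend and robust options, a replicate block, the methods' t-test, leaving out each array, and other thresholds of the rule.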

Additional observations from a re-analysis of the deposited data

Results flagged for a closer look

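The rise of immunoglobulin signal between day 60 and day 90 was looked at again because the effects of these 2 ages, measured against the same controls, differed by a test of the difference itself (day 90 against day 60, limma). Among the 18 members that met the rule without the day 90 arrays 14 differed, beside 9.94% of all tested probes called higher and 9.83% called lower. The count was smaller with the methods' t-test after adjustment, as given in the next section. The log2 difference was 4.65 for IGKC, 3.13 for IGLC1 and 0.47 for IGHA. For probes named by gene number it was 4.54 for Igkc and 3.87 for 1 probe of Iglv1. For the others day 60 was not above background, so that the fitted values of 3.21 for Ighg1, 2.55 for the other Iglv1 probe and 0.60 for Ighg3 stand beside bounds of at least 5.69-fold, at least 4.74-fold and at least 1.11-fold. These last probes passed the filter for testing only through day 90 arrays or through these and control mouse 3. Groups of 3 mice were not tested for outlying samples.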

How the results depend on the processing

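The count of 108 members became 260 with a rule threshold of 100 and 38 with 300. At day 90 against control the 13 members called higher became 27 without the filter, 37 in 1 fit of all 4 groups, 5 with a trended and robust spread, 2 with the methods' t-test after adjustment and 8 without adjustment, and ranged from 6 to 78 when 1 array was left out; leaving out control mouse 3 gave 78, control mouse 1 or day 90 mouse 3 gave 6, and control mouse 2 gave 8. For the 18 members that met the rule without the day 90 arrays, 1 call became 5 without the filter, 7 in 1 fit of all groups and 0 with the methods' t-test, adjusted or not, and ranged from 0 to 13 with 1 array left out. At day 90 against day 60 the 91 calls became 50 with a filter at 200 (fewer members tested), 59 with a trended and robust spread and 18 with the methods' t-test after adjustment, with a range from 76 to 99 when 1 array was left out, and the 14 calls among the 18 became 4 with that last test. Elsewhere, 0 members became 3 lower at day 60 against control and 2 lower at day 30 against control with the methods' t-test without adjustment, 8 higher at day 60 against day 30 with the same, and from 0 to 2 lower at day 60 against control with 1 array left out (2 without control mouse 3). An alternative can also change the share of all probes called. At day 90 against control, 10.4% of probes were called higher with the filter, 5.26% without it and 10.8% without control mouse 3. For most alternatives this share was not counted, so the moves are not read as results about the members. Why these counts moved was not tested beyond the construction of each alternative.

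The labels name no pairing of mice that share a number across groups, and the samples were treated as unpaired. Correlations of same-numbered deviations ran from -0.432 to 0.36, and with 3 mice per group they cannot exclude a pairing. With the replicate block 32 members were called at day 90 against control (13 without the block), and 4 of the 18 (1 without the block), while no other count moved by over 1.5 times under the block. The share of all tested probes called under the block was not counted, so nothing about the members is read from this.

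Single probes that turned sign were not called to begin with. IGHV7S3 at day 90 against control was -0.044 with upper quartile scaling. With 1 array left out at day 90 against control, the log2 difference ran from -0.168 to 0.192 for IGHV7S3, from -0.963 to 0.691 for IGKV5-48, from -0.389 to 0.982 for IGKV17-127, from -0.484 to 0.409 for Ighg3 and from -0.352 to 0.877 for Ighm, and at day 90 against day 60 from -0.151 to 0.774 for Ighm. Of 882 repeats over 53 named probes at day 90 against day 60, 770 kept direction and call and 111 lost the call. Of 661 repeats over 40 named probes against control, 560 kept both, 59 lost the call and 29 gained one, 13 of them without control mouse 3.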
